A study of Mus musculus with 9 samples.

Results

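The recurring spacings 3-7-17-21 and 3-7-13-4 are 2 patterns of distances between neighbouring CpGs that occur again and again in the mouse genome. A run is a set of 5 neighbouring CpGs whose gaps, in bp, are 3, 7, 17 and 21 or 3, 7, 13 and 4, read from either end. Runs were sought among the 1342457 CpGs with at least 5 calls in at least 5 of the 9 deposited libraries, and kept where all 8 samples had at least 10 calls over the run. This gave 2100 runs, 1309 with the spacing 3-7-17-21 and 791 with 3-7-13-4, of 446468 runs of 5 neighbouring CpGs within 100 bp that passed the same minimum. A call is 1 read of 1 CpG, methylated or not, and the level of a run is the percentage of its calls that were methylated. The runs were chosen by position and call number, but the 2 spacings themselves were selected on their methylation levels in these samples, with the difference between stages and strains known. The levels below therefore describe the runs, and no test is attached to the mean over them.

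The series compared cloned embryos with the cells that gave their nuclei. The embryos (label NTZy14, 4 samples), here called NT embryos, were made by nuclear transfer: the nucleus of a fibroblast was put into an enucleated C57/B6 oocyte, the polar body was biopsied, and development was started with a strontium salt in the presence of cytochalasin B, a drug that keeps the egg from extruding chromosomes. The fibroblasts (label TT, 4 samples) grew out of tail tips of adult male mice and were cultured to confluence. In each stage 2 samples carry the strain label X1 (numbers 3 and 4) and 2 the label BDF1-CAST (numbers 1 and 2); the sources used here do not say what cross or line X1 is or what the digits in NTZy14 stand for. Fibroblast sample 1 joins a library and its resequencing. Nothing says that the samples came from separate animals, so the spread between them may be technical. All were profiled by reduced representation bisulfite sequencing, in which DNA cut at CCGG is treated so that an unmethylated cytosine reads as thymine. Libraries held 25239364 to 41466097 calls. X1 libraries covered 1376884 to 1596888 CpGs and BDF1-CAST libraries 1746590 to 1886972, and the strain difference cannot be told apart from this one.

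In mammals CpG methylation keeps most transposons and other repeated sequence silent, and it is copied to the new strand at each division by the maintenance enzyme Dnmt1. After fertilization much of the genome loses methylation in the first divisions, while some classes of repeats resist the loss. Repeats built of tandem units carry their CpGs at fixed distances, so that a distance pattern that recurs far more often than others marks copies of one sequence.

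The gaps of the 2 spacings lie on the same ladder of positions. Counted from the CpG at the 3 bp end, 3-7-17-21 places CpGs at 0, 3, 10, 27 and 48 bp, and 3-7-13-4 at 0, 3, 10, 23 and 27 bp, since gaps of 13 and 4 bp add up to 17. They are shown here because both fit in one ladder of 6 CpGs, in which 3-7-17-21 skips the CpG at 23 bp and 3-7-13-4 ends before that at 48 bp. Capitals mark the CpGs and n stands for any base; the bases between the CpGs were not read here, since no genome of the files' build was used.

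3-7-17-21: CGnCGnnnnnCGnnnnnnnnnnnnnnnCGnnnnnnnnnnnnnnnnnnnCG
3-7-13-4: CGnCGnnnnnCGnnnnnnnnnnnCGnnCG
all 6 places: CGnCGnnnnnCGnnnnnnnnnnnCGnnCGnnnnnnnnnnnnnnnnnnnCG

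Which of the 2 spacings a run was given moved with the number of calls asked for, and the CpG at 23 bp had fewer calls than its neighbours. Of the 1309 runs listed as 3-7-17-21, 1266 (96.7%) had at least 1 call at 23 bp, and 1263 had a call there in 5 or more of the libraries. The median number of calls over the 9 libraries was 37 at 23 bp in 3-7-17-21 runs, against 128 at 0 bp in the same runs, and 46 at 23 bp in 3-7-13-4 runs, against 127 at 0 bp. With 1 call in 5 files enough to list a CpG, 77 runs had the spacing 3-7-17-21 and 2735 had 3-7-13-4. At 5 calls the numbers were 1310 and 798, and at 10 calls 70 and 57. The gap after the run lay on the same ladder: 3-7-13-4 was followed by a gap of 21 bp, which puts a CpG at 48 bp, in 532 of 791 runs (67.3%). In 43 runs of 3-7-17-21 no library had a call at 23 bp, and these changed by -14.7 points between stages, against -12.98 points over all 1309.

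**Figure D1:**
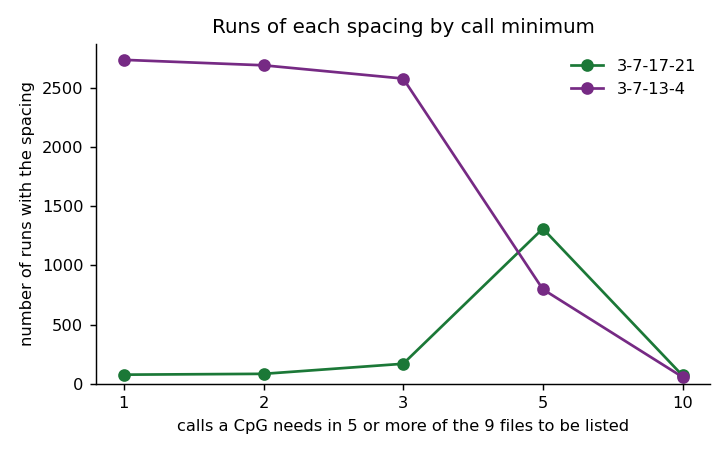
Number of runs with each spacing (y axis) by the calls a CpG needs in 5 or more of the 9 files to be listed (x axis, steps not to scale), before the minimum of 10 calls per run. The 3-7-17-21 line has its peak of 1310 at 5 calls, where the 3-7-13-4 line has 798; at 1 call the lines stand at 77 and 2735.

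The runs repeat along the chromosome at 212 bp. Of the 2100 runs, 1146 (54.6%) had another run of either spacing exactly 212 bp away in the same orientation. Among 890 neighbouring runs under 1000 bp apart, 679 were 212 bp apart, 141 were 424 bp apart and 27 were 636 bp apart, which are multiples of the same unit. No run had one of the opposite orientation within 1000 bp. The gap before a 3-7-17-21 run was 82 bp in 626 runs, 152 bp in 262, 107 bp in 222 and 185 bp in 91; in a unit of 212 bp these are the CpGs at 130, 60, 105 and 27 bp of the copy before. The same 4 gaps were the most frequent before 3-7-13-4 runs, at 362, 172, 134 and 40 runs. After a 3-7-17-21 run the next CpG came 12 bp on in 1265 of 1309 runs (96.6%), at 60 bp of the ladder.

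Runs of 3-7-17-21 with and without a neighbour at 212 bp had like levels. The 737 runs of 3-7-17-21 with such a neighbour were at 76.4% ± 10.5 in NT embryos and 89.3% ± 0.769 in fibroblasts, and the 572 without at 76.4% ± 10.5 and 89.4% ± 0.453 in the same order (SD over samples, n = 4 each). The 409 runs of 3-7-13-4 with a neighbour were at 77.4% ± 9.52 in NT embryos and 89.98% ± 0.632 in fibroblasts, and the 382 without, which include 9 runs with almost no methylation, at 75.2% ± 9.37 and 87.9% ± 0.701 in the same order. Those without were lower in every sample, but all 9 of these low runs are among them. The 782 runs of 3-7-13-4 other than the 9, with or without a neighbour, were at 77.2% in NT embryos and 89.98% in fibroblasts. The changes were -12.6 points with a neighbour and -12.7 points without. RefSeq promoters of build GRCm38.p6, windows of 300 bp around the starts of genes, were searched on both strands as a different kind of sequence. Of 32851 promoters none held the CpG spacing 3-7-17-21 and 8 (0.0244%) held 3-7-13-4; a hit is only a match of CpG distances.

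Both spacings were highly methylated in fibroblasts and lower in NT embryos, by far more in BDF1-CAST than in X1. In NT embryos the mean level of the 1309 runs of 3-7-17-21 was 87.6 and 82.98% in the X1 samples and 66.9 and 68.0% in the BDF1-CAST samples. In fibroblasts it was 89.9 and 89.5% in X1 and 89.6 and 88.4% in BDF1-CAST. All 4 NT embryo samples thus lay below all 4 fibroblast samples, and among NT embryos both X1 samples lay more than 10 points above both BDF1-CAST samples, while the fibroblasts of the 2 strains overlapped. The means were 76.4% ± 10.5 in NT embryos and 89.4% ± 0.630 in fibroblasts (SD, n = 4 each), a difference of -12.98 points. It was -4.40 points in X1 and -21.6 points in BDF1-CAST.

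The 791 runs of 3-7-13-4 had nearly the same values. In NT embryos they averaged 86.8 and 81.8% in X1 and 67.5 and 69.2% in BDF1-CAST, and in fibroblasts 89.6 and 89.3% in X1 and 89.0 and 88.0% in BDF1-CAST. The difference between stages was -12.7 points, made of -5.15 points in X1 and -20.2 points in BDF1-CAST. Set against each other within a sample, 3-7-17-21 minus 3-7-13-4 ranged from -1.22 to 1.16 points over the 8 samples. The change of 3-7-17-21 minus that of 3-7-13-4 was 0.744 points in X1 and -1.40 points in BDF1-CAST, which average to -0.328 points. Over all runs, 3-7-17-21 was in NT embryos the higher spacing in both X1 samples and the lower in both BDF1-CAST samples. The order in X1 rested on the 3-7-13-4 runs with almost no methylation. With only runs at 60% or more in fibroblasts, 3-7-17-21 minus 3-7-13-4 was -0.142 and 0.222 points in X1 NT embryos. In BDF1-CAST NT embryos it was -1.36 and -1.95 points. In fibroblasts it was then below 0 in every sample, at -0.776 to -0.419 points.

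Other tested runs give the scale. Only the recurring runs themselves were left out of them, so they can overlap each other and share CpGs with the recurring runs. They can also lie elsewhere in the 212 bp unit. The 50878 other tested runs at 80% or more in fibroblasts averaged 83.2 and 80.5% in X1 and 73.5 and 74.2% in BDF1-CAST NT embryos, against 88.2 and 87.7% in X1 and 87.6 and 86.4% in BDF1-CAST fibroblasts. They changed by -9.56 points, -6.06 in X1 and -13.1 in BDF1-CAST. The change of the recurring runs was thus larger than that of these other methylated runs in BDF1-CAST and smaller in X1, with no test attached. In NT embryos X1 exceeded BDF1-CAST by 17.1 points in the recurring runs of both spacings together and by 7.96 points in the other runs; in fibroblasts the same differences were 0.778 and 0.948 points. Over all 446468 tested runs, most of which had little methylation, the change between stages was -1.52 points.

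**Figure D2:**
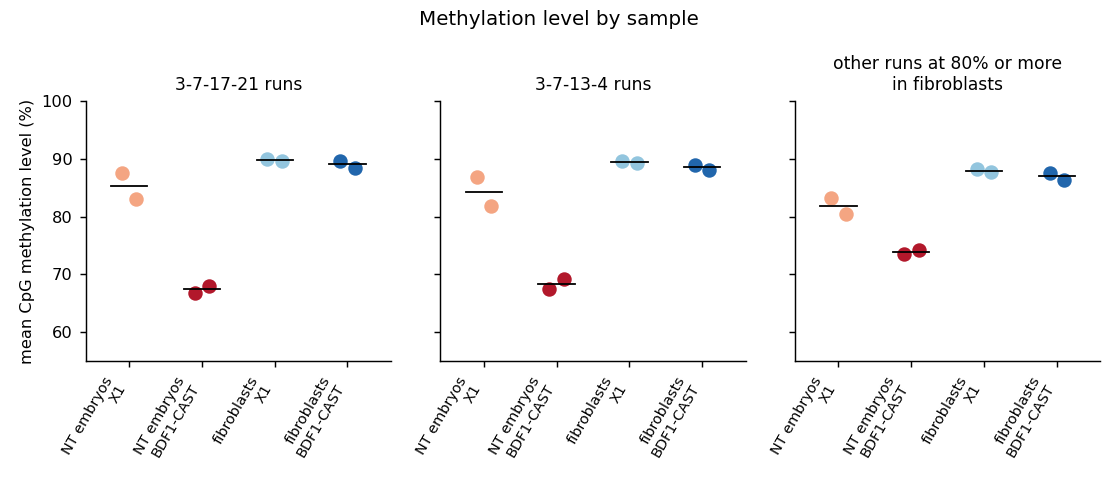
Mean CpG methylation level (y axis, %, from 55 to 100) of the runs of each spacing and of other tested runs at 80% or more in fibroblasts, by stage and strain. Each point is 1 sample and each bar the mean of 2 samples. The BDF1-CAST NT embryos lie at 66.9 to 69.2% in the 2 recurring spacings, below all other groups.

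Single runs followed the mean. Of 3-7-17-21 runs, 1013 (77.4%) were lower in NT embryos of X1 and 1307 of 1309 in those of BDF1-CAST. The median change was -4.14 points in X1, with 90% of runs between -14.2 and 4.07, and -21.8 points in BDF1-CAST, with 90% between -33.3 and -8.83. A fall of at least 20 points was seen in 12 runs (0.917%) in X1 and in 778 (59.4%) in BDF1-CAST. For 3-7-13-4 the medians were -4.64 points in X1 and -19.98 points in BDF1-CAST, and 9 (1.14%) and 395 runs (49.9%) fell by at least 20 points. Of the other runs at 80% or more in fibroblasts, 63.3% were lower in X1 and 86.0% in BDF1-CAST. Falls of at least 20 points were seen in 10.5% of them in X1 and 24.8% in BDF1-CAST. The fall was larger in BDF1-CAST than in X1 in 1266 of the 3-7-17-21 runs (96.7%) and 742 of the 3-7-13-4 runs (93.8%), against 76.2% of the other runs at 80% or more. Both X1 NT embryo samples lay above both BDF1-CAST ones in 1024 (78.2%) and 579 (73.2%) of the runs of the 2 spacings, against 46.2% of the other runs; among fibroblasts the shares were 21.5%, 23.3% and 25.8%.

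**Figure D3:**
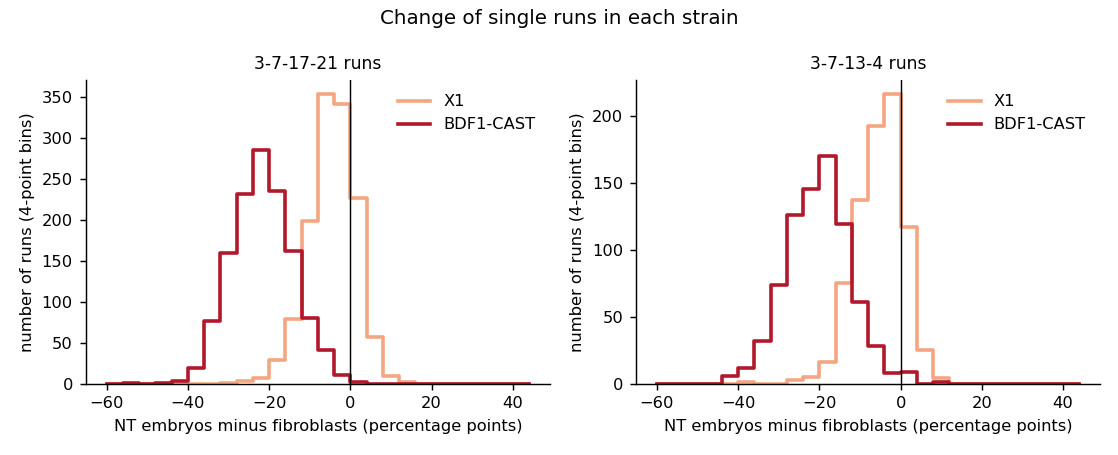
Number of runs (y axis, bins of 4 points) by level in NT embryos minus level in fibroblasts (x axis, percentage points), for each strain and spacing. The BDF1-CAST curves have their medians at -21.8 and -19.98 points and the X1 curves at -4.14 and -4.64 points.

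The order of the 3-7-17-21 runs in one sample was barely shared by the other sample of its group. Across the 1309 runs of 3-7-17-21 the correlation between the 2 samples of a group was 0.0123 in X1 and 0.0133 in BDF1-CAST NT embryos, and 0.0351 in X1 and 0.00214 in BDF1-CAST fibroblasts (Pearson's r across runs, which are not independent replicates). For 3-7-13-4 the same values were 0.604 in X1 and 0.368 in BDF1-CAST NT embryos and 0.898 in X1 and 0.866 in BDF1-CAST fibroblasts. Over the 782 runs that were at 80% or more in fibroblasts they were 0.0434 and 0.0457 in NT embryos and 0.204 and 0.0457 in fibroblasts, in the same order of strains. In fibroblasts the SD over 3-7-17-21 runs was 2.95 to 4.52 points, and the number of calls alone would give 2.70 to 4.10 points. In NT embryos it was 5.59 to 10.3 points, against 4.18 to 6.88 points from the number of calls. Median calls per run were 41 to 64 in NT embryos and 63 to 128 in fibroblasts. Calls of 1 read at neighbouring CpGs are not independent, and how reads that match several copies were placed is not given in the sources used here; the part of either in this spread was not tested.

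In the 3-7-13-4 set 9 of 791 runs stood apart. They had 0 to 31.6% methylation in every sample, and a mean of 1.55% ± 2.58 in NT embryos and 1.40% ± 0.890 in fibroblasts (SD, n = 4 each), while no run of 3-7-17-21 was under 80% in fibroblasts and the other 782 runs of 3-7-13-4 were all at 80% or more. None of the 9 had another run 212 bp away, and none was followed by a gap of 21 bp. The deepest was on chromosome 1 at 75502606 to 75502633, with at least 165 calls in every sample and levels of 0 to 2.62%. The one with the highest level was on chromosome 5 at 120885681 to 120885708, which had 31.6% in BDF1-CAST NT embryo sample 2, against 0 to 0.369% in the other NT embryos and 1.60 to 14.1% in fibroblasts. These 9 were singled out after their values were seen. Without them 3-7-13-4 changed by -12.8 points, -5.19 in X1 and -20.4 in BDF1-CAST, and 3-7-17-21 minus 3-7-13-4 ranged from -1.95 to 0.222 points over the 8 samples.

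Levels differed from place to place within a run. Among the 112 runs of 3-7-17-21 with at least 5 calls at every place in every sample, the first place (0 bp) was at 79.9% ± 9.28 in NT embryos and 93.9% ± 0.409 in fibroblasts (SD over samples, n = 4 each). The place at 3 bp was at 74.6% ± 9.92 in NT embryos and 85.7% ± 0.880 in fibroblasts. The place at 10 bp was at 80.6% ± 10.1 and 94.5% ± 0.710 in the same order. The place at 27 bp was at 69.2% ± 13.2 in NT embryos and 81.9% ± 1.48 in fibroblasts, and the last, at 48 bp, at 70.3% ± 12.9 and 87.0% ± 2.22. In fibroblasts each sample thus had the CpGs at 0 and 10 bp above those at 3, 27 and 48 bp, and all 4 samples had a higher level at 3 bp than any had at 27 bp.

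The order of the changes was not that of the levels. At 0, 3, 10, 27 and 48 bp the difference between stages was -14.0, -11.0, -13.9, -12.7 and -16.8 points. In BDF1-CAST these were -21.9, -20.0, -22.0, -22.8 and -26.5 points, and in X1 -6.15, -2.07, -5.86, -2.60 and -7.12 points. The SD over NT embryo samples, which takes in both strains, was 9.28 to 13.2 points at the 5 places, more than the distance between any pair of these changes. The places share the samples and the gap between strains, so this SD does not measure the spread of differences between places. In both strains the CpG at 3 bp fell less than those at 0 and 10 bp, with no test attached. Taken over all runs with the calls at a single place, 136 runs at 48 bp to 1285 runs at 10 bp, the changes were -14.5, -11.0, -14.5, -11.3 and -15.5 points. With calls summed over the 112 runs in place of equal weights, the change at 48 bp was -7.08 points, the smallest of the 5, so its rank rests on the weighting. Without BDF1-CAST NT embryo sample 1 the change at 27 bp was -7.65 points.

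For 3-7-13-4 the places shared with the other spacing had the same levels once the 9 low runs were left out. Over 29 runs, the CpGs at 0, 3 and 10 bp were at 78.9, 72.4 and 81.2% in NT embryos and at 94.5, 85.6 and 93.9% in fibroblasts. The CpG at 23 bp, which the rule counts only in this spacing, was at 78.5% ± 9.55 in NT embryos and 89.4% ± 2.99 in fibroblasts, and that at 27 bp at 70.8% ± 12.2 and 81.6% ± 2.99. The changes were -15.6, -13.2, -12.7, -10.9 and -10.8 points along the run. With the low runs included, 34 runs had the calls, and the levels at the first place were 67.7% in NT embryos and 80.9% in fibroblasts. The changes over these 34 were -13.2, -11.3, -11.1, -9.10 and -9.16 points with equal weights and -11.5, -9.42, -15.0, -15.96 and -15.1 points with calls summed, so no order of the places held under both. Without BDF1-CAST NT embryo sample 1 the change at 27 bp was -4.71 points. Summed over the 1266 runs of 3-7-17-21 with calls at 23 bp, that CpG was at 89.1 and 84.2% in X1 and 69.3 and 71.4% in BDF1-CAST NT embryos, against 92.8 and 92.3% in X1 and 91.3 and 90.6% in BDF1-CAST fibroblasts.

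**Figure D4:**
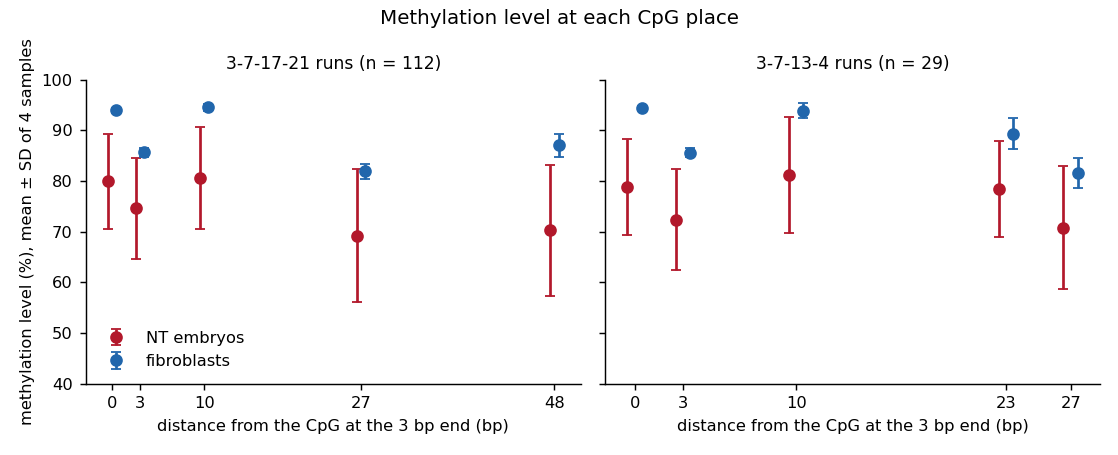
Methylation level (y axis, %, from 40 to 100) at each CpG of a run by its distance from the CpG at the 3 bp end (x axis, bp), in runs with at least 5 calls at every place in every sample and at least 60% in fibroblasts. Points are means and bars SDs of 4 samples; the CpGs at 0 and 10 bp are at 93.9 to 94.5% in fibroblasts, those at 3 and 27 bp at 81.6 to 85.7%.

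The CpGs around the runs behaved like those in them. Within 500 bp on either side of the 3-7-17-21 runs lay 4420 CpGs with at least 5 calls in every sample, and they were at 85.8 and 81.7% in X1 and 65.8 and 67.3% in BDF1-CAST NT embryos, against 89.8 and 89.7% in X1 and 88.4 and 87.1% in BDF1-CAST fibroblasts. They changed by -13.6 points, -5.99 in X1 and -21.2 in BDF1-CAST. Around the 3-7-13-4 runs the 3370 CpGs changed by -12.2 points with equal weights, by -7.27 points with calls summed, and by -5.72 points where only CpGs with 5 calls in all 9 files were listed. Of these, 248 lay within 500 bp of the 9 low runs and were at 0.757% ± 0.146 in NT embryos and 0.949% ± 0.231 in fibroblasts (SD, n = 4 each), and the other 3122 changed by -13.2 points.

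Most of these flanking CpGs sat at fixed distances from the runs. A distance was called recurring where at least 10% of the 2100 runs had a listed CpG there. There were 41 such distances outside the runs, and they fall on 10 positions of the 212 bp unit; 28 of the 41 repeat one of the positions 0, 3, 10, 23, 27, 48 and 60 bp. The 5808 CpGs at recurring distances from either spacing changed by -13.4 points, -5.67 in X1 and -21.1 in BDF1-CAST. The 949 at other distances were less methylated, 52.5% ± 6.37 in NT embryos and 61.9% ± 1.75 in fibroblasts (SD, n = 4 each), and changed by -9.42 points, -5.28 in X1 and -13.6 in BDF1-CAST. Of these, the 466 around 3-7-17-21 runs changed by -13.4 points and the 623 around 3-7-13-4 runs, which can lie near both, by -7.56 points. The 248 CpGs within 500 bp of the 9 low runs, at 0.757% in NT embryos and 0.949% in fibroblasts, were not left out here. Their part in the lower level and smaller change at other distances was not tested.

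The CpGs at 0, 3 and 10 bp of the unit had like levels in neighbouring copies. The CpG at 0 bp was at 79.3% in NT embryos and 93.9% in fibroblasts in the run itself. One unit before it, at -212 bp, the values were 79.6 and 94.1% in the same order, and one unit after, at 212 bp, 79.4 and 94.2%. The CpG at 3 bp was at 74.5 and 85.6% in the run and at 74.6 and 85.8% at -209 bp. At 27 bp the levels differed more, 70.5 and 81.5% in the run against 74.4 and 85.5% at -397 bp. At 23 bp they were 65.5 and 74.4% in the run, where 41 CpGs had the calls, some of the low runs among them, and 80.2 and 90.04% at -189 bp. Recurrent copies share CpGs among the runs that were averaged, so these values are not independent of each other.

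With CpGs weighted equally, the one with the largest change of the unit was not in either spacing. At 60 bp, the 218 CpGs that had 5 or more calls in each sample averaged 67.5% in NT embryos and 89.5% in fibroblasts, a difference of -22.1 points, made of -12.4 points in X1 and -31.7 points in BDF1-CAST. At the same place of the neighbouring copies the change was -22.9 points at -364 bp (132 CpGs), -22.97 points at -152 bp (193 CpGs), -22.8 points at 272 bp (130 CpGs) and -22.7 points at 484 bp (56 CpGs). Among recurring distances with at least 50 such CpGs, all others changed by between -9.82 and -15.8 points. This CpG was singled out after its values were seen.

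**Figure D5:**
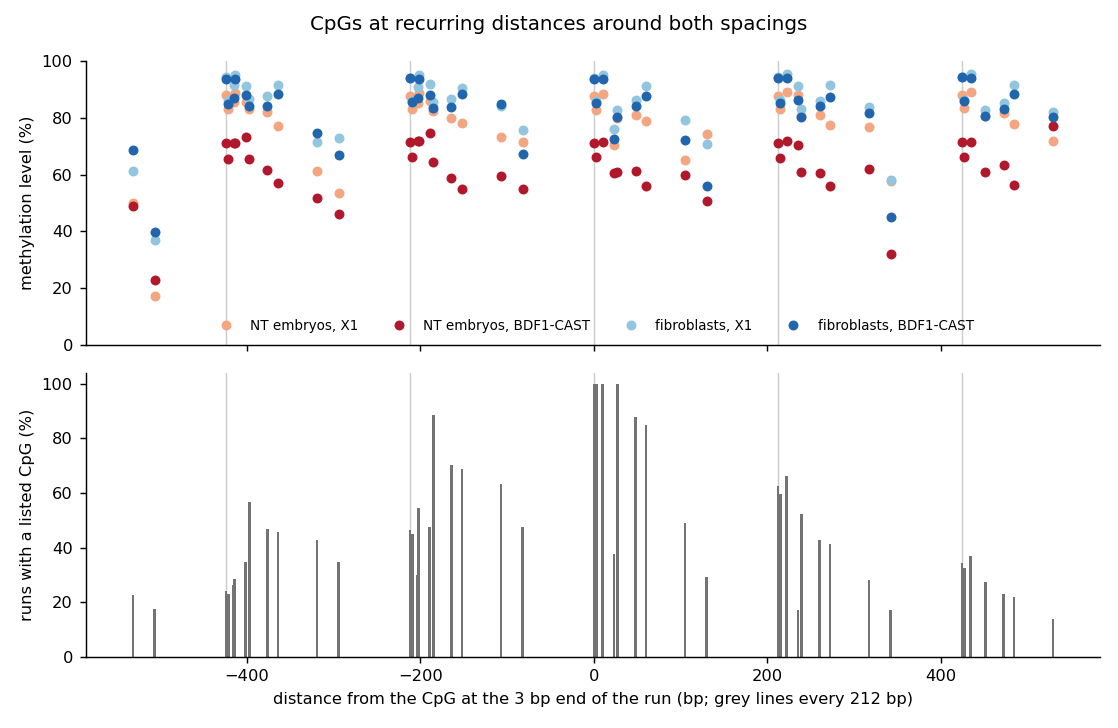
Upper panel: mean methylation level (y axis, %) of CpGs at recurring distances from the CpG at the 3 bp end (x axis, bp), by stage and strain, in CpGs with at least 5 calls in every sample; places with few CpGs, such as those near 105 and 130 bp of each unit, scatter most. Lower panel: share of the 2100 runs with a listed CpG at that distance, with grey lines every 212 bp. The CpG at 60 bp was at 67.5% in NT embryos and 89.5% in fibroblasts.

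Runs of both orientations and of all chromosomes had like levels. The 617 runs of 3-7-17-21 with the 3 bp gap at the lower coordinate changed by -13.2 points and the 692 with it at the higher by -12.8 points; for 3-7-13-4 the values were -12.95 points (388 runs) and -12.4 points (403 runs). The X chromosome held 213 of the 2100 runs (10.1%) and 3.87% of the listed CpGs, or 41.0 runs per 10000 listed CpGs, against 6.35 on chromosome 11 and 26.8 on chromosome 16. On X the runs of both spacings were at 76.9% in NT embryos and 89.9% in fibroblasts, a change of -12.99 points. Over the 19 autosomes the change ran from -13.7 points on chromosome 13 to -12.1 points on chromosome 4. In X1 the changes on the 20 chromosomes ran from -5.89 to -3.19 points and in BDF1-CAST from -22.8 to -19.99 points, so every chromosome changed more in BDF1-CAST.

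The 3-7-13-4 runs split by the CpG at 48 bp, and relatives in which other CpGs of the ladder were not listed, changed alike. Runs with all 6 CpGs listed, which are 3-7-13-4 runs followed by 21 bp, numbered 533 and changed by -13.02 points. Those with 3-7-13-4 not followed by 21 bp numbered 259, the 9 low runs among them, and changed by -11.7 points. Of the relatives, 20 runs with gaps 3-7-13-25 changed by -10.9 points and 31 with 10-13-4-21 by -11.9 points. The 84 with 10-17-21 changed by -11.5 points and the 170 with 3-7-38 by -11.7 points. In all 6, NT embryos of X1 were higher than those of BDF1-CAST, by 14.4 to 16.9 points.

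Few of the runs passed a test of their own, and the counts are given beside those of all tested runs. A quasi-binomial logistic model with stage and strain as terms was fitted to all 446468 runs, with dispersion moderated by limma and p-values adjusted by Benjamini-Hochberg over all of them. Between stages, 3 of the 1309 runs of 3-7-17-21 and 1 of the 791 of 3-7-13-4 passed both thresholds, an adjusted p below 0.05 and a gap of 20 points or more between the stages, and all 4 were lower in NT embryos. Of all runs 0.504% passed, 0.49% with the lower level in NT embryos, and of runs at 80% or more in fibroblasts 3.05% passed, all lower; the spacings were chosen with this contrast known, and nothing is read from the count. One of the 4, named after its values were seen, was on chromosome 1 at 20422488 to 20422536, at 75.4 and 63.9% in X1 and 62.8 and 64.3% in BDF1-CAST NT embryos, against 92.3 and 96.3% in X1 and 90.6 and 95.3% in BDF1-CAST fibroblasts. It fell by 24.7 points in X1 and fell by 29.4 points in BDF1-CAST (adjusted p = 0.0352, quasi-binomial model), and here the strains overlapped. In each of the other runs called between stages, both X1 NT embryo samples lay above both BDF1-CAST ones. The calls did not hold with fewer samples, where the fit also has less power. Without any 1 of the fibroblast samples no run in the whole table was called, and with any 1 NT embryo sample left out 0 to 1319 were.

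No run of either spacing was called between strains, where 36 of all runs (0.00806%) and 1 of the runs at 80% or more in fibroblasts (0.00189%) were called. The smallest adjusted p was 0.184 among 3-7-17-21 runs and 0.112 among 3-7-13-4 runs (quasi-binomial model with limma-moderated dispersion). At an unadjusted p under 0.05 stood 312 runs of 3-7-17-21 (23.8%) and 215 of 3-7-13-4 (27.2%). The shares were 15.4% of all runs and 15.7% of runs at 80% or more in fibroblasts. X1 was the higher strain in all 312 and in 211 of the 215. Among all runs at that p it was the higher in 26144 of 68861, and among those at 80% or more in 7686 of 8301. As a share of every run tested, such runs with X1 higher were 23.8% and 26.7% in the 2 spacings. They were 5.86% of all runs and 14.5% of runs at 80% or more. Without X1 NT embryo sample 3 the shares at an unadjusted p under 0.05 were 8.10% of 3-7-17-21, 10.8% of 3-7-13-4 and 12.04% of all runs. Without BDF1-CAST NT embryo sample 1 they were 13.1%, 13.9% and 11.9%, without BDF1-CAST NT embryo sample 2 12.99%, 15.7% and 12.8%, and without X1 NT embryo sample 4 the share of 3-7-13-4 was 18.01%. With limma on arcsine square root levels, 400 of all runs were called between strains and 1 of them was a 3-7-13-4 run. For the product of stage and strain no run in the table was called, and the smallest adjusted p was 0.775. At an unadjusted p under 0.05 were 385 runs of 3-7-17-21 (29.4%) and 194 of 3-7-13-4 (24.5%), all with the smaller fall in X1. Of all runs 6.1% stood there, 3.66% with the smaller fall in X1, and of runs at 80% or more in fibroblasts 12.7% and 11.6%. These shares were lower without some single samples, where the fit also has less power. Without BDF1-CAST fibroblast sample 1 they were 12.6% of 3-7-17-21, 9.73% of 3-7-13-4 and 2.58% of all runs. Without X1 NT embryo sample 3 they were 15.2%, 13.4% and 4.56%, without X1 fibroblast sample 3 17.4%, 14.0% and 4.43%, without X1 fibroblast sample 4 14.7%, 12.1% and 2.90%, and without BDF1-CAST fibroblast sample 2 20.02%, 15.3% and 3.48%. For this term limma, on the same arcsine scale, called 0 runs as well. The spacings were selected with the strain difference known, and all runs share the same samples. Nothing is therefore read from the shares of the 2 spacings for strain or for its product with stage.

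The runs with the smallest p between strains were both 3-7-13-4 runs, and neither was called. On chromosome 6 at 107053138 to 107053165, X1 was at 88.3 and 87.4% in NT embryos and at 91.4 and 92.5% in fibroblasts. BDF1-CAST was at 57.6 and 65.3% in NT embryos and at 74.1 and 74.5% in fibroblasts. The strains therefore differed in both stages, by 22.0 points over all samples (adjusted p = 0.112). On X at 58518786 to 58518813, X1 was at 90.0 and 88.0% in NT embryos and BDF1-CAST at 44.2 and 52.2%, while fibroblasts were at 95.2 and 95.05% in X1 and 90.1 and 88.1% in BDF1-CAST (adjusted p = 0.144 between strains). Without BDF1-CAST NT embryo sample 1 its strain difference was 15.3 points, against 23.4 with all samples.

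Among runs with at least 20 calls in every sample, the largest fall of 3-7-17-21 was on chromosome 4 at 17336089 to 17336137. It had 86.4 and 76.5% in X1 and 34.7 and 39.9% in BDF1-CAST NT embryos, against 93.8 and 82.1% in X1 and 91.3 and 88.2% in BDF1-CAST fibroblasts. It fell by 6.49 points in X1 and fell by 52.5 points in BDF1-CAST, the largest fall in that strain among 3-7-17-21 runs. On chromosome 14 at 44246167 to 44246215 the mean was 64.3% ± 23.5 in NT embryos and 92.8% ± 3.65 in fibroblasts, and on chromosome 6 at 63617815 to 63617863 it was 61.3% ± 19.6 and 89.3% ± 1.49 in the same order (SD, n = 4 each).

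The largest fall of 3-7-13-4 was on chromosome 13 at 6883451 to 6883478, with 79.7 and 51.3% in X1 and 40.5 and 56.5% in BDF1-CAST NT embryos, against 86.2 and 91.1% in X1 and 93.5 and 89.9% in BDF1-CAST fibroblasts. Here the NT embryos of the strains overlapped, and the run fell by 23.2 points in X1 and fell by 43.2 points in BDF1-CAST. On chromosome 4 at 93447673 to 93447700 the mean was 64.8% ± 25.9 in NT embryos and 92.2% ± 2.14 in fibroblasts. On chromosome 16 at 21938924 to 21938951, the one run of this spacing called between stages (adjusted p = 0.0370, limma-moderated model), it was 66.3% ± 13.6 in NT embryos and 93.2% ± 2.98 in fibroblasts.

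A few runs had no fall. The 3 of 3-7-17-21 with the highest difference between stages lay at 1.97 points (chromosome 4, 66016471 to 66016519), 1.02 points (chromosome 1, 69278852 to 69278900) and 1.01 points (chromosome 14, 44877522 to 44877570). In the first of them NT embryos were at 96.3 and 100% in X1 and at 66.7 and 91.4% in BDF1-CAST, against 84.4 and 85.8% in X1 and 90.7 and 85.5% in BDF1-CAST fibroblasts. Of 3-7-13-4 they were the low run on chromosome 11 at 98656143 to 98656170, with 1.79% ± 2.08 in NT embryos and 0.137% ± 0.273 in fibroblasts, and 2 runs on X. Those on X, at 165849777 to 165849804 and at 155339254 to 155339281, were at 89.8% ± 5.99 and 93.6% ± 3.00 in NT embryos and at 88.5% ± 4.86 and 92.3% ± 2.20 in fibroblasts (SD, n = 4 each). All of these differences are smaller than the SD over NT embryo samples, and all but that of the run on chromosome 11 change sign when some single sample is left out.

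The minimum of 10 calls excluded 1 of 1310 candidates of 3-7-17-21 and 7 of 798 of 3-7-13-4. Just inside it, runs on chromosome 6 at 70474794 and chromosome 15 at 57255265, with lowest counts of 10 and 12 calls, were at 67.9 and 73.6% in NT embryos and at 91.7 and 89.6% in fibroblasts. The candidate just outside, on chromosome 5 at 17305371 with 6 calls, was at 72.4% in NT embryos and 85.6% in fibroblasts. For 3-7-13-4 the runs just inside, on chromosome 6 at 68312214 and X at 95228074, were at 74.2 and 69.7% in NT embryos and at 85.9 and 91.1% in fibroblasts. The candidates just outside, on chromosome 4 at 90646131 and chromosome 17 at 75798740, were at 77.3 and 78.2% in NT embryos and at 89.4 and 91.2% in fibroblasts.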

How the data were processed

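For each library the authors deposited, per the read-me text among the files, the count of reads seen and the count of methylated reads at each CpG. The submitters' processing notes name the build mm9, and positions are printed as deposited. The sources used here name neither an aligner nor a caller. The lowest deposited count is 1. The authors' table of methylation in windows over the genome was not used.

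Libraries 1 and 1a were summed. The level of a run is its methylated calls over all its calls, and means weight runs equally. A quasi-binomial logistic model was fitted to every run of 5 neighbouring CpGs spanning at most 100 bp with at least 10 calls in every sample. Its Pearson dispersion was moderated in R 4.3.3 by limma 3.58.1 (squeezeVar), kept at 1 or above, and F tests were adjusted by Benjamini-Hochberg. The model was tested on simulated data. Other steps used Python 3.11.15, numpy 2.4.6 and scipy 1.17.1. The members, lists and tests were chosen with earlier results of these data known.

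Named runs were, for each spacing and among runs with at least 20 calls in every sample, the 3 largest falls and the 3 smallest, the runs called between strains or else the 2 with the smallest p, and those next to the call minimum. Intervals are not given, since no molecular identifiers are stated and calls of 1 read are not independent. Alternatives changed the call minimums, the weighting, library 1a, each sample, the chromosomes, the flank, a replicate block and the model.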

Additional observations from a re-analysis of the deposited data

Results flagged for a closer look

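Dixon's ratio was computed for 56 groups of 4 samples and singled out a sample in 2 of them, where chance alone would give about 1 in 20. In the 3-7-13-4 run on chromosome 4 at 93447673, X1 fibroblast sample 3 had a level of 95.4%, and the remaining fibroblasts had 90.9 to 91.4%. In the 3-7-13-4 run on chromosome 11 at 98656143, BDF1-CAST fibroblast sample 1 was at 0.546% and the others at 0%. With all the others equal, the ratio takes its largest value whatever the level of the remaining sample, so this flag carries no information.

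Among the named runs, 2 had both NT embryo samples of X1 above the fibroblast mean of their strain and both of BDF1-CAST below theirs. Neither difference passed the test of stage by strain across all runs (adjusted p = 0.775 for both, limma-moderated model). The 3-7-17-21 run on chromosome 14 at 44877522 changed by 6.56 points in X1 and by -4.53 points in BDF1-CAST, a difference of 11.1 points. Its BDF1-CAST NT embryo sample 1, at 87.7%, lay only just below the mean of the BDF1-CAST fibroblasts, at 85.0 and 90.4%. The 3-7-13-4 run on X at 165849777 changed by 7.66 points in X1 and by -4.88 points in BDF1-CAST, a difference of 12.5 points. Beyond the named runs the direction was counted in each strain by itself. Of the 1309 runs of 3-7-17-21, 1013 (77.4%) were lower in NT embryos of X1 and 1307 (99.8%) in those of BDF1-CAST. For the 791 runs of 3-7-13-4 the numbers were 645 (81.5%) and 781 (98.7%). Among the other runs at 80% or more in fibroblasts the shares were 63.3% in X1 and 86.0% in BDF1-CAST.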

How the results depend on the processing

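The change between stages and the strain difference in NT embryos kept their sign in every alternative run for both spacings. Of all tested runs, 2248 were called between stages and 36 between strains; the stage count was 1311 at 20 calls per run, 85 with CpGs that had 5 calls in all 9 files and 1218 without library 1a, and the strain count was 15 without library 1a and 400 with limma on arcsine square root levels. With single samples left out the stage count ranged from 0 to 1319 and the strain count was 0 throughout. Same-numbered samples of the stages deviated together by r = 0.00457 in X1 and 0.0464 in BDF1-CAST over the recurring runs. The order of 3-7-17-21 runs was barely shared even within a group, so these values cannot tell whether the numbers pair the samples. With the replicate number as a block 0 runs were called between stages. The X1 minus BDF1-CAST level of 3-7-13-4 runs in fibroblasts, 0.919 points, was 2.09 points with 5 calls in all 9 files. The change at 27 bp of 3-7-13-4 reversed to 1.71 points at 10 calls at every place, a setting that left 1 run, and left 0 of 3-7-17-21. Near-zero changes of named runs changed sign with single samples left out: they ranged from -1.83 to 9.28 points for chromosome 4 at 66016471, -1.18 to 3.96 for chromosome 1 at 69278852, -0.592 to 3.49 for chromosome 14 at 44877522, -0.862 to 3.75 for X at 165849777 and -0.0789 to 2.30 for X at 155339254. The cause was not tested. No runs of the 2 spacings overlapped. Listing CpGs at 1 call in 5 files, chosen after seeing the data, gave 76 and 2697 runs with 10 calls per sample. Depth of 41 to 66 median calls per run in NT embryos limits what single runs can show.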
